A study of Mus musculus with 12 samples.

Results

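The genes described here are 4 Schlafen genes (*Slfn1*, *Slfn2*, *Slfn3* and *Slfn4*), 3 genes of the GIMAP family (*Gimap3*, *Gimap4* and *Gimap6*) and the membrane protein gene *Ms4a4b*, which were listed by name for their links to T-cell quiescence and survival. A probe set was taken where the platform annotation gives it 1 gene symbol and that symbol is one of the 8. Of the 8 genes, 4 were measured in this way, of 8251 genes with such a probe set on the array. They have 5 probe sets, because *Slfn2* has 2. *Slfn3* is listed only on a probe set that it shares with *Slfn4*, which was not used, and *Gimap3*, *Gimap6* and *Ms4a4b* have no probe set that the annotation lists under their symbols, so nothing below speaks of these 4 genes' expression.

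The mRNA of total thymocytes was measured on 12 Affymetrix arrays, 1 for each of 6 female mice and 2 treatments. The mice were F1 animals of C57Bl/6 and 129Sv, 6 to 7 weeks old, with 2 mice in each of 3 genotypes. *Med23flox/flox;Lck-Cre* mice, called MED23 null, carry floxed *Med23* alleles and a Cre transgene. One control genotype, *Med23+/+;Lck-Cre* (here *Lck-Cre*), carries the Cre transgene and wild type *Med23* alleles, and the other, *Med23flox/flox*, carries the floxed alleles without Cre. After a rest of 4 h, each mouse's cells spent 3 h on plates with bound αCD3 antibody or without it (mock). The *Lck* promoter drives Cre in the T-cell lineage only, from the double negative stage on, so other thymic cells keep *Med23*. *Med23* itself was measured at 252.1 and 239.0 in αCD3-treated and 268.4 and 207.3 in mock MED23 null cells, below all control arrays (309.9 to 488.8 after αCD3, 288.1 to 424.2 in mock). It was therefore lower but not absent, and whether its probes lie in the deleted exons is not known here. Signals are MAS5 intensities on a linear scale, and the number of arrays limits their precision.

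Schlafen proteins are a family found in mammals whose first member was named for the restraint that it places on the growth of thymocytes, and the mouse genes are regulated during thymocyte maturation and T-cell activation. Loss of *Slfn2* in the mouse strain elektra leaves T cells in a state that is only partly quiescent and prone to die on activation. GIMAP proteins are GTPases of lymphocytes, several of which affect the survival of T cells, and *Gimap4* is induced as thymocytes mature. T cells that leave the thymus are held in a resting state by transcription factors such as KLF2 and FOXO1, and MED23 is the subunit through which ELK1, a factor of the ETS family, contacts the Mediator complex.

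The *Slfn* genes lie side by side on chromosome 11 in the order *Slfn2*, *Slfn1*, *Slfn4*, *Slfn3*, and *Gimap4* lies in the GIMAP cluster of chromosome 6, beside *Gimap6*. The sequences before their transcription starts are shown because *Slfn1* and *Gimap4* are the members that differed most between MED23 null and the pooled controls, whereas the values of *Slfn2* and *Slfn4* overlapped between these groups. Within 250 bases before the start (RefSeq, GRCm38.p6), the longest run that the 4 *Slfn* promoters share on the strand of the gene is 9 bases long and is in capitals in the first 4 windows below. It was found by comparing these promoters after they had been seen. *Slfn1* and *Slfn4* share 15 bases there.
Slfn1: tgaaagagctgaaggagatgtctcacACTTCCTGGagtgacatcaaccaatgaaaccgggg
Slfn4: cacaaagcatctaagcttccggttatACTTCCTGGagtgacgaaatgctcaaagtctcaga
Slfn2: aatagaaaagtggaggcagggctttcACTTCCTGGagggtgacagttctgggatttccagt
Slfn3: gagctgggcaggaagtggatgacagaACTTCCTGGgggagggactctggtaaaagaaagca
Gimap4: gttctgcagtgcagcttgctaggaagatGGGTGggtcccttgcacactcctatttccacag

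The windows are chr11:83116720-83116780 for *Slfn1*, chr11:83175087-83175147 for *Slfn4*, chr11:83065031-83065091 for *Slfn2*, chr11:83191262-83191322 for *Slfn3* and chr6:48684471-48684531 for *Gimap4*, all on the plus strand of GRCm38.p6. The run begins 74 bases before the start of *Slfn1*, 73 before that of *Slfn4*, 55 before that of *Slfn2* and 42 before that of *Slfn3*. Of 10 promoters with a Schlafen symbol in the table, these 4 hold it and the others, among them *Slfn5*, *Slfn8*, *Slfn9* and *Slfn14*, do not. Over all 27025 promoters, 0.744% hold it on either strand and 0.355% on the strand of the gene. It contains TTCC, the complement of the GGAA core that ETS factors recognise. This short core was not among those searched for in advance. Its share of all promoters was not counted, so its presence here sets these promoters apart from no others. The 4 genes are paralogs, so their promoters are not independent of each other, and *Slfn2* and *Slfn4*, whose MED23 null values overlapped with the pooled controls, hold the run as *Slfn1* does.

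Capitals in the *Gimap4* window mark the complement of CACCC, a core sequence that KLF factors recognise, 79 to 75 bases before the start. The core was found on either strand in the promoters of *Slfn2*, *Slfn3*, *Gimap3*, *Gimap4* and *Ms4a4b*, but not in those of *Slfn1*, *Slfn4* and *Gimap6*. It stands in 51.3% of all promoters of this length. The core of interferon response elements is in 3.04% of all promoters and was found in none of the 8, and TTCNNNGAA, a STAT core, is in 7.18% and was found only in that of *Gimap6*. A match of this kind is a description of letters and not of a bound site.

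*Slfn1*, the founding member of the family, had the clearest difference between genotypes. In mock thymocytes its signal (probe set 102264_at) was 424.9 and 435.6 in MED23 null mice, against 1232 and 943.2 in *Lck-Cre* and 828.3 and 1067 in *Med23flox/flox* mice. Both MED23 null values were thus below every control value, and the MED23 null mean was 0.423 of the control mean (430 ± 7.57, SD, n = 2, and 1018 ± 173, SD, n = 4). On the scale of log2(signal + 50), which is used for all differences here and understates those of dim probe sets, MED23 null minus control was −1.14 (SE 0.19, 95% interval −1.59 to −0.69). The limma adjusted p over all 9478 probe sets tested was 0.22, which does not pass the threshold of 0.05. No probe set of the array passed in this comparison (0%), although 701 had an unadjusted p under 0.05 (7.4%). *Slfn1* had an unadjusted p of 0.000562, which ranked 24 among the 9478.

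After αCD3, the signal of *Slfn1* was 361.8 and 296.6 in MED23 null thymocytes, against 727.3 and 786.1 in *Lck-Cre* and 611.9 and 668.0 in *Med23flox/flox* thymocytes. The groups again did not overlap. MED23 null minus control was −0.98 (SE 0.18, 95% interval −1.42 to −0.54, limma adjusted p = 0.493), with a MED23 null mean that was 0.471 of the control mean. No probe set passed the test here either (0%), and 584 had an unadjusted p under 0.05 (6.16%).

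**Figure D1:**
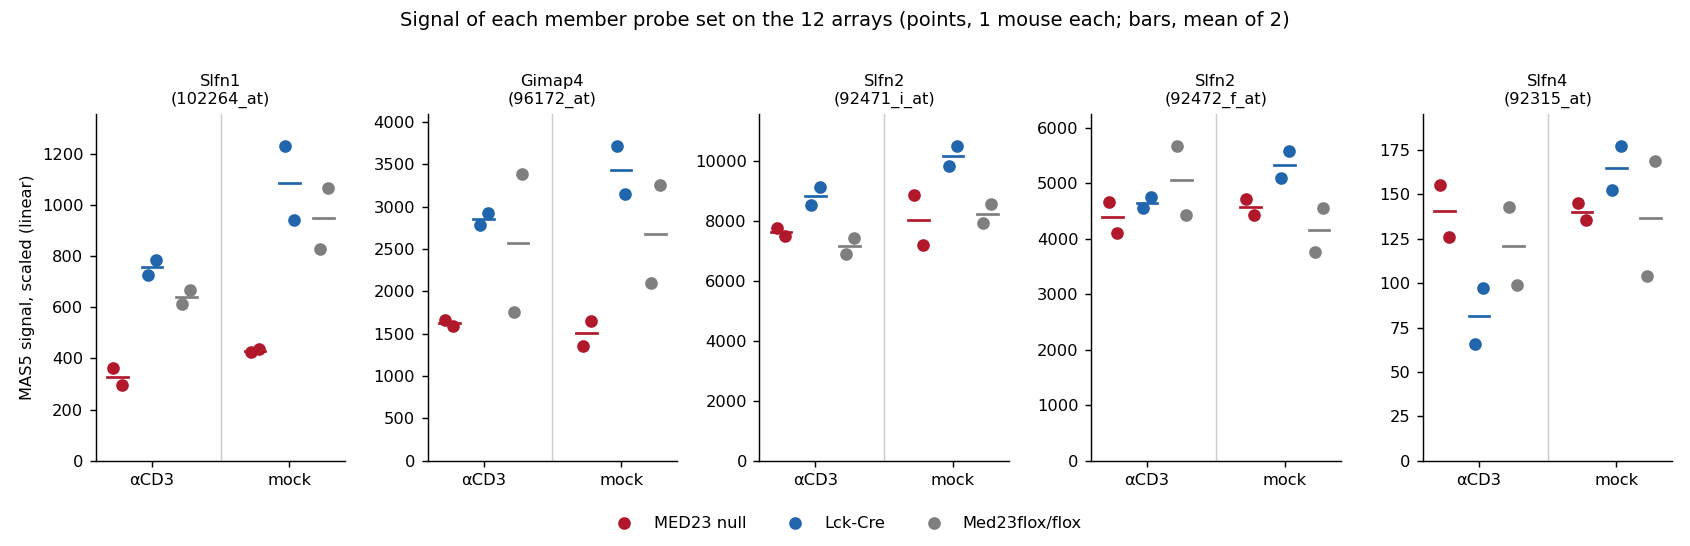
Signal of the 5 probe sets on the 12 arrays, on linear axes that start at 0, with αCD3 arrays left of mock arrays. Each point is 1 mouse and each bar the mean of 2 mice. *Slfn1* and *Gimap4* were lower in MED23 null than in every control array of the same treatment, with *Slfn1* between 296.6 and 435.6 on the 4 MED23 null arrays and between 611.9 and 1232 on the 8 control arrays.

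*Gimap4*, a GTPase gene expressed in T cells, was the other member whose genotypes did not overlap. In mock thymocytes its signal was 1350 and 1655 in MED23 null mice, against 3718 and 3149 in *Lck-Cre* and 2096 and 3254 in *Med23flox/flox* mice. The MED23 null mean was 0.492 of the control mean, and the log2 difference was −0.98 (SE 0.25, 95% interval −1.57 to −0.38, limma adjusted p = 0.394). After αCD3 it was 1660 and 1591 in MED23 null thymocytes, against 2787 and 2919 in *Lck-Cre* and 1754 and 3384 in *Med23flox/flox* thymocytes. The margin after αCD3 was narrow, because the *Med23flox/flox* replicate 1 value of 1754 lay close to the MED23 null values. That array correlated with the other arrays at a mean of 0.905, where every other array reached at least 0.937. The part of this in the *Gimap4* value was not tested. The log2 difference after αCD3 was −0.68 (SE 0.28, 95% interval −1.33 to −0.03, limma adjusted p = 0.78). *Gimap4* varied more within a condition than the other members, with a spread of 0.34 on the log2 scale against 0.17 for *Slfn1*.

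Thus 2 of the 5 probe sets were lower in MED23 null without overlap in mock thymocytes, where 8.44% of all tested probe sets were, and the same 2 after αCD3, where 8.61% were. The study's list of genes that were lower in mock MED23 null thymocytes was drawn by a ratio from these arrays and holds *Slfn1* and *Gimap4*, so their mock values are not independent evidence of the direction. The αCD3 arrays are from the same mice.

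*Slfn2*, the family member with the best known role in T-cell quiescence, was among the brightest genes of these cells, and its mean signals of 8347 and 4693 lay above those of 98.6% and 97.1% of the tested probe sets. On probe set 92471_i_at its mock signal was 8883 and 7184 in MED23 null mice, against 9826 and 10510 in *Lck-Cre* and 7927 and 8567 in *Med23flox/flox* mice. On probe set 92472_f_at, whose suffix marks probes shared within a sequence family, the mock signal was 4724 and 4425 in MED23 null mice, against 5100 and 5572 in *Lck-Cre* and 3764 and 4562 in *Med23flox/flox* mice. On both, the MED23 null values lay within the range of the controls or reached into it. The log2 difference from control was −0.19 (SE 0.18, 95% interval −0.63 to 0.24, limma adjusted p = 0.83) on the first and −0.04 (SE 0.19, −0.50 to 0.42, adjusted p = 0.973) on the second. These intervals do not reach a loss as large as the value for *Slfn1*, but they leave room for smaller changes of either sign.

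The αCD3 arrays gave *Slfn2* signals of 7750 and 7509 in MED23 null, against 8534 and 9140 in *Lck-Cre* and 6912 and 7418 in *Med23flox/flox* thymocytes on the first probe set, and a log2 difference from control of −0.06 (SE 0.19, adjusted p = 0.979). The MED23 null values lay between those of the control genotypes. On the second probe set they were 4665 and 4103 in MED23 null, against 4556 and 4748 in *Lck-Cre* and 5674 and 4428 in *Med23flox/flox* thymocytes, a log2 difference of −0.14 (SE 0.18, adjusted p = 0.968). Over the 12 arrays the 2 *Slfn2* probe sets had a Pearson correlation of only 0.356, so they did not rank the arrays alike.

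*Slfn4*, a family member best known from macrophages, was dim. Its mean signal of 130.8 exceeded that of 20.9% of the tested probe sets. In mock thymocytes it was 144.9 and 135.7 in MED23 null mice, against 152.4 and 177.4 in *Lck-Cre* and 104.3 and 169.0 in *Med23flox/flox* mice, so that the MED23 null values lay among those of the controls (log2 difference −0.06, SE 0.20, 95% interval −0.53 to 0.40, limma adjusted p = 0.955). After αCD3 it was 155.2 and 125.8 in MED23 null thymocytes, against 65.9 and 97.3 in *Lck-Cre* and 142.9 and 98.9 in *Med23flox/flox* thymocytes. The log2 difference was 0.35 (SE 0.24, 95% interval −0.21 to 0.91, limma adjusted p = 0.904), the only difference from control above 0 among the members, and the groups overlapped.

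**Figure D2:**
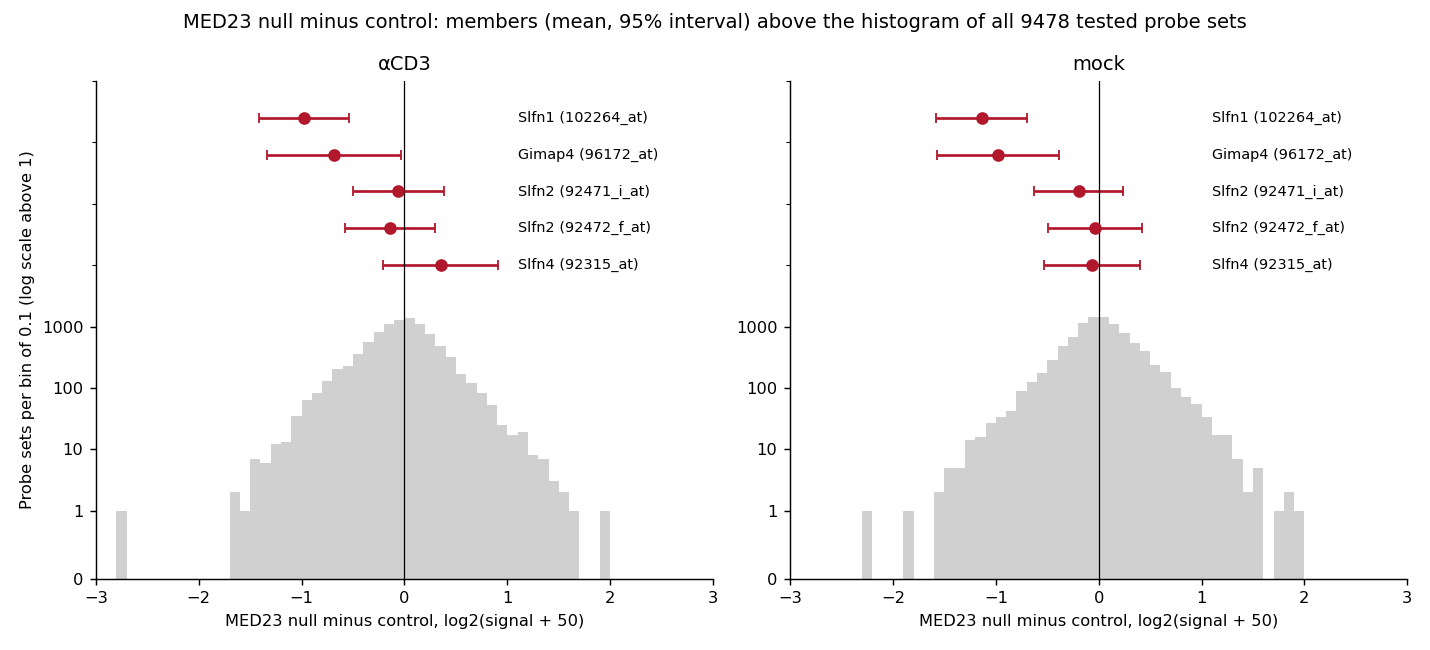
MED23 null minus control on the log2(signal + 50) scale for the 5 probe sets (points, with 95% intervals as bars), drawn above the histogram of all 9478 tested probe sets, after αCD3 (left) and in mock (right). The vertical axis applies to the histogram and is logarithmic above 1. *Slfn1* (−0.98 after αCD3, −1.14 in mock) and *Gimap4* (−0.68 and −0.98) lie in the lower tail, and the intervals of *Slfn2* and *Slfn4* span 0.

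The control genotypes differ from MED23 null mice in different alleles, so each was also compared with them alone, in a fit with a mean for each genotype. In mock thymocytes *Slfn1* was −1.23 (SE 0.22, limma adjusted p = 0.318) against *Lck-Cre* and −1.04 (SE 0.22, adjusted p = 0.407) against *Med23flox/flox*. *Gimap4* was −1.17 (SE 0.27, adjusted p = 0.418) and −0.79 (SE 0.27, adjusted p = 0.583). Both genes were therefore lower against either control, and the controls were closer to each other than to MED23 null, with *Lck-Cre* minus *Med23flox/flox* at 0.19 (SE 0.22, adjusted p = 0.97) for *Slfn1* and 0.38 (SE 0.27, adjusted p = 0.928) for *Gimap4*.

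After αCD3, *Slfn1* was −1.09 (SE 0.21, limma adjusted p = 0.612) against *Lck-Cre* and −0.87 (SE 0.21, adjusted p = 0.555) against *Med23flox/flox*, and *Gimap4* was −0.79 (SE 0.33, adjusted p = 0.999) and −0.57 (SE 0.33, adjusted p = 0.708). Against *Med23flox/flox* the *Gimap4* value after αCD3 turned on single mice, at −0.11 without replicate 2 and −1.04 without replicate 1 of that genotype, and in mock at −0.47 and −1.10. No probe set of the array passed any of these 4 comparisons (0% each), with 458 to 732 at an unadjusted p under 0.05.

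For the other members, overlap depended on the control. Against *Lck-Cre* in mock, all 5 probe sets were lower in MED23 null without overlap, where 18.6% of all probe sets were, whereas against *Med23flox/flox* only *Slfn1* and *Gimap4* were, where 17.8% of all probe sets were. After αCD3, *Slfn1*, *Gimap4* and the first *Slfn2* probe set were below both *Lck-Cre* mice (18.5% of all probe sets), while *Slfn4* was above them (0.54, SE 0.25, limma adjusted p = 0.999, where 17.8% of all probe sets were higher without overlap). Against *Med23flox/flox* after αCD3, *Slfn1* and *Gimap4* were lower (20.2% of all probe sets) and the first *Slfn2* probe set was higher without overlap (0.09, SE 0.20, 16.2%).

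Between the control genotypes themselves, *Slfn2* differed without overlap on 3 of 4 occasions. *Lck-Cre* minus *Med23flox/flox* in mock was 0.30 (SE 0.19, limma adjusted p = 0.924) on its first and 0.36 (SE 0.19, adjusted p = 0.907) on its second probe set, both without overlap, as 18% of all probe sets were higher. After αCD3 it was 0.30 (SE 0.20, adjusted p = 0.843) on the first probe set and 0.23 (SE 0.21, adjusted p = 0.879) for *Slfn1*, again without overlap (16.3%). *Slfn4* ran the other way after αCD3 (−0.38, SE 0.25, adjusted p = 0.844), where 19.3% of all probe sets were lower. No probe set of the array passed between the controls in either treatment (0%, with 535 in mock and 562 after αCD3 at an unadjusted p under 0.05).

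The response to αCD3 was taken within each mouse, as the ratio of its αCD3 to its mock signal. *Slfn1* was lower after αCD3 in all 6 mice, with ratios of 0.852 and 0.681 in MED23 null, 0.590 and 0.833 in *Lck-Cre* and 0.739 and 0.626 in *Med23flox/flox* mice. The ranges of the genotypes overlapped. The mean log2 change was −0.35 (SE 0.19, limma adjusted p = 0.999) in MED23 null mice and −0.50 (SE 0.13, 95% interval −0.82 to −0.18, adjusted p = 0.373) in control mice. Over the 6 mice together, a mean added after the data had been seen, it was −0.45 (SE 0.11, unadjusted p = 0.0048, limma adjusted p = 0.294), and 2.17% of all probe sets were lower in every mouse. In that mean 34 probe sets of the array passed the test (0.359%), of which 2 were lower (0.0211%), and no member did.

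No member probe set passed the test of the response in MED23 null mice, where 3 probe sets of the array did (0.0317%, all higher), or in control mice, where 14 did (0.148%, all higher). Among members, *Slfn1* and the first *Slfn2* probe set were lower after αCD3 in all 4 control mice, where 8.68% of all probe sets were. *Slfn1* and the second *Slfn2* probe set were lower in both MED23 null mice, where 26.3% of all probe sets were.

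The first *Slfn2* probe set gave the most uniform response of any member. Its αCD3 to mock ratio was 0.872 and 1.045 in MED23 null, 0.869 and 0.870 in *Lck-Cre* and 0.872 and 0.866 in *Med23flox/flox* mice, so that 5 of the 6 mice lay within 0.866 and 0.872. The mean log2 change was −0.07 (SE 0.16, limma adjusted p = 0.999) in MED23 null and −0.20 (SE 0.11, adjusted p = 0.704) in control mice. The standard error is larger than the spread of the 4 control ratios because the fit shares a spread with the MED23 null mice and with other probe sets. The second *Slfn2* probe set did not repeat this pattern. Its ratios were 0.988 and 0.927 in MED23 null, 0.893 and 0.852 in *Lck-Cre* and 1.508 and 0.971 in *Med23flox/flox* mice, and the change in control mice was 0.04 (SE 0.16, adjusted p = 0.964).

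*Slfn4* had ratios of 1.071 and 0.927 in MED23 null, 0.432 and 0.549 in *Lck-Cre* and 1.370 and 0.585 in *Med23flox/flox* mice. It was thus lower after αCD3 in 3 of 4 control mice and near 1 in MED23 null mice, with a mean log2 change of −0.0024 (SE 0.28, limma adjusted p = 0.999) in MED23 null and −0.42 (SE 0.20, adjusted p = 0.683) in control mice. *Med23flox/flox* replicate 1 was the exception for *Slfn4* and for the second *Slfn2* probe set. Its αCD3 array stood apart from the rest. It correlated with the other arrays at a mean of 0.905, where every other array reached at least 0.937, and its lower quartile of signal was 85.3, the highest of all. In mock, that mouse also had the lowest control signals of both probe sets, 104.3 for *Slfn4* and 3764 for the second *Slfn2* probe set. Without that mouse, which removes both of its arrays, the change in control mice was −0.66 for *Slfn4* and −0.14 for the second *Slfn2* probe set. The part of either array in the exception was not tested.

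*Gimap4* had αCD3 to mock ratios of 1.229 and 0.962 in MED23 null, 0.750 and 0.927 in *Lck-Cre* and 0.837 and 1.040 in *Med23flox/flox* mice. These lay on both sides of 1 and overlapped between genotypes. The mean log2 change was 0.12 (SE 0.19, limma adjusted p = 0.999) in MED23 null and −0.18 (SE 0.13, adjusted p = 0.768) in control mice.

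**Figure D3:**
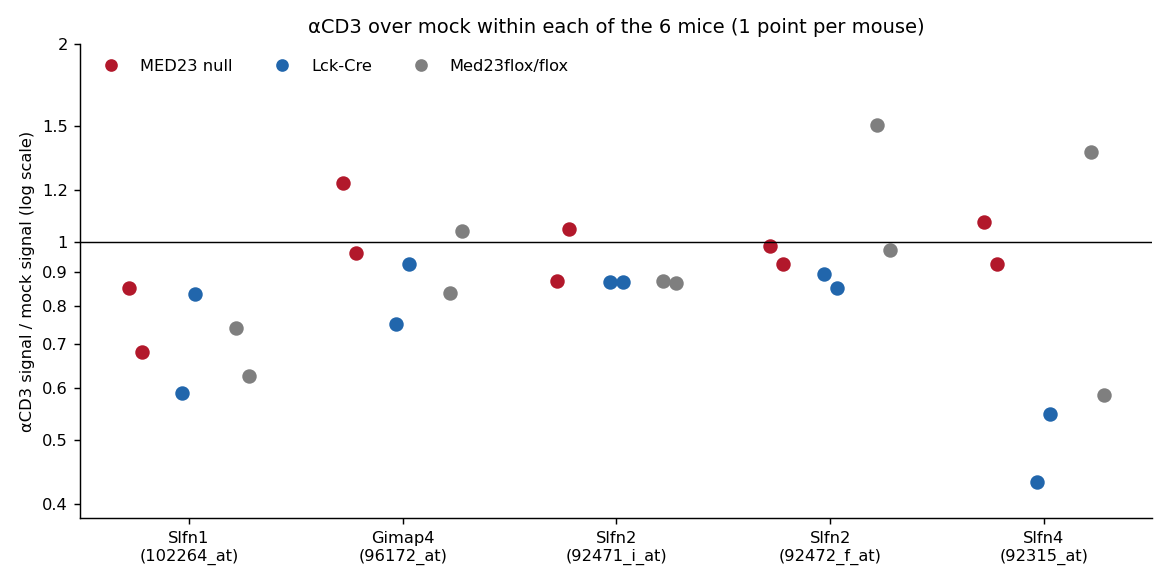
αCD3 signal over mock signal within each mouse for the 5 probe sets, on a logarithmic axis, where each point is 1 mouse and the line marks a ratio of 1. *Slfn1* lies between 0.590 and 0.852 in all 6 mice, and the first *Slfn2* probe set lies near 0.87 in 5 of 6.

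The responses of MED23 null and control mice were also compared with each other. MED23 null minus control was 0.16 (SE 0.23, 95% interval −0.40 to 0.71) for *Slfn1*, 0.29 (SE 0.23, −0.26 to 0.85) for *Gimap4*, 0.14 (SE 0.19, −0.33 to 0.60) and −0.10 (SE 0.28, −0.78 to 0.58) for the *Slfn2* probe sets and 0.41 (SE 0.35, −0.41 to 1.24) for *Slfn4*, each with a limma adjusted p of 1. The first *Slfn2* probe set was higher in MED23 null without overlap, as 6.06% of all probe sets were. No probe set of the array passed (0%), with 486 at an unadjusted p under 0.05. With these mice, a difference between genotypes in the response of a member was thus not detectable.

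*Slfn1* shared its 3 features (below all controls in mock, below all controls after αCD3, lower after αCD3 in every mouse) with few others. The first 2 features were met by 180 of the 9478 probe sets (1.9%) and all 3 by 17 (0.179%), counted after the values had been seen. Ordered by the mock difference, the first of the 17 were *Ccr7* (−1.26), a chemokine receptor of mature thymocytes, *Slfn1* (−1.14), *Tdrp* (−0.69), *Cd7* (−0.65), a surface protein of T cells, and *Evl* (−0.58), an actin regulator. *Lef1*, a transcription factor of T cells, was among them with 2 probe sets (−0.48 and −0.28).

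Likeness over all 12 arrays is given as Pearson's r on the log2 scale, with no test since the arrays share groups and mice. It uses the same *Slfn1* values as the 3 features above, so genes named in both are not independent support. The 3 genes most like *Slfn1* were *Ccr7* (r = 0.966), *Cd7* (0.944) and *Tdrp* (0.938). After group means were removed, r was 0.833 for *Ccr7*, 0.918 for *Tdrp* and 0.418 for *Cd7*. The groups here were MED23 null and the pooled controls in each treatment, so differences between the control genotypes remain in these values. The genes most like *Gimap4* were *Dhrs7* (0.956), *Ahnak* (0.938) and *Rere* (0.932), and those most like the first *Slfn2* probe set were *Padi4* (0.860), *Emb* (0.842) and *Lef1* (0.835). *Slfn4* was most like *2510002D24Rik* (0.911), *Gng12* (0.909) and *Lpcat1* (0.872). *Slfn1* and *Gimap4* had r = 0.857 with each other (0.715 with group means removed). With the genes on either side of it, *Slfn1* had r = 0.026 (*Slfn4*, which was dim) and 0.598 and 0.286 (first and second *Slfn2* probe sets).

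Markers of mature single positive thymocytes, a list chosen with earlier results of these data known, were mostly lower in MED23 null, as *Slfn1* and *Gimap4* were. Of 18 genes of that list that were tested, 15 were below 0 in mock MED23 null minus control. Of these, 12 were lower without overlap, where 8.44% of all probe sets were. The median was −0.56 against 0.01 for all probe sets, and none of the 18 passed the test. Their summed signal was 20880 to 21200 in MED23 null and 26390 to 31070 in control mock arrays, and 20420 to 22470 in MED23 null and 28090 to 32450 in control arrays after αCD3. After αCD3, 16 of the 18 were below 0, with a median of −0.34 against −0.01 for all probe sets. Of the 18, 10 were lower without overlap, where 8.61% of all probe sets were. No marker was at 0 in mock, although *Cd44* (13.3 and 15.1) and *Klf2* (36.8 and 44.2) were near the bottom of the scale in MED23 null arrays, and the part of these cells in the *Slfn1* and *Gimap4* differences was not tested. In bulk thymocytes, fewer cells of a type and less RNA per cell cannot be told apart.

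The marker *Ccr7* had mock signals of 407.0 and 335.2 in MED23 null, against 1273 and 1011 in *Lck-Cre* and 641.5 and 998.4 in *Med23flox/flox* mice (log2 difference −1.26, SE 0.27, limma adjusted p = 0.328). *Cd52*, a small surface glycoprotein of lymphocytes, had 1502 and 1673 in MED23 null, against 4077 and 3917 in *Lck-Cre* and 3947 and 3314 in *Med23flox/flox* mice (−1.24, SE 0.16, adjusted p = 0.174). *Il7r*, the receptor chain for the survival cytokine IL-7, was closer to its controls, at 701.4 and 760.5 in MED23 null, against 1107 and 1198 in *Lck-Cre* and 649.0 and 939.4 in *Med23flox/flox* mice (−0.36, SE 0.25, adjusted p = 0.797). The mock differences of *Slfn1* and *Gimap4* thus lay in the range of the markers with the largest decreases. Members and markers were chosen with earlier results of these data known, so this nearness is not independent evidence.

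Sums of other lists differed with genotype as well, but the genes within them were mixed. The summed signal of 11 double positive markers was 93560 to 96710 in MED23 null and 111000 to 115900 in control mock arrays, and 97430 to 97690 in MED23 null and 104100 to 105900 in control arrays after αCD3. Of the 11, 8 were below 0 in mock. Lower without overlap were 4 of these (*Rag1*, *Rag2*, *Dntt* and *Cd8b1*), where 8.44% of all probe sets were. The coreceptor gene *Cd4* was higher (4965 to 5374 in MED23 null and 3959 to 4513 in control arrays). Sums of 7 NK and cytotoxic genes were 3959 to 5796 in MED23 null and 1605 to 2249 in control mock arrays. *Gzma*, a granzyme, made up most of that sum (3352 to 4825 in MED23 null and 1018 to 1382 in control arrays). Of the 7 genes, 5 were above and 2 below 0, and *Gzmb* (−0.52) was lower without overlap, as 8.44% of all probe sets were. Mock sums of 10 B-cell genes, 7 of them above 0, were 9625 to 10080 in MED23 null and 8235 to 8979 in control arrays, and those of 14 myeloid genes, 12 of them above 0, were 6354 to 6810 in MED23 null and 4483 to 6970 in control arrays. Myeloid sums thus overlapped in mock, although the MED23 null mean was higher (6582 against 5286). They also overlapped after αCD3 (6000 to 6872 in MED23 null and 4096 to 6372 in control arrays), with 11 of the 14 genes above 0. The median log2 difference of the 14 genes was 0.30 in mock and 0.33 after αCD3. The sum of 5 erythroid genes was 17440 to 46130 in MED23 null and 7892 to 19510 in control mock arrays, with 3 of 5 above 0. The part of these cells in the members' values was not tested. After αCD3, the actin 3′ to 5′ ratio, a measure of RNA integrity, was 1.61 and 1.90 in MED23 null and 1.35 to 1.41 in control arrays, and its part was not tested either. In mock the actin ratio was 1.44 and 1.63 in MED23 null and 1.35 to 1.60 in control arrays. The same ratio for *Gapdh* after αCD3 was 0.636 and 0.766 in MED23 null and 0.599 to 0.648 in control arrays. In mock it was 0.635 and 0.664 in MED23 null and 0.580 to 0.693 in control arrays. The part of the *Gapdh* ratio was not tested.

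A list of 25 T-cell quiescence factors was split in direction, although its summed signal was 31520 to 32310 in MED23 null and 33310 to 36690 in control mock arrays, without overlap. After αCD3 the sums overlapped, at 31520 to 32790 in MED23 null and 30500 to 34070 in control arrays. Of 19 genes tested in mock, 10 were below and 9 above 0, with a median of −0.05 against 0.01 for all probe sets. None passed the test. Lower without overlap were 2 of the 19, *Klf2* and *Lef1*, where 8.44% of all probe sets were. After αCD3, 10 of the 19 were below and 9 above 0, with a median of −0.01. *Btg1*, an antiproliferative gene, was at 0.0005 (SE 0.15), *Tob1*, a related gene, at 0.12 (SE 0.20) and *Foxo3*, a FOXO factor, at −0.05 (SE 0.14) in mock.

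*Klf2*, a transcription factor of T-cell egress and quiescence, was low on most arrays. Its mock signal was 36.8 and 44.2 in MED23 null, against 414.7 and 343.0 in *Lck-Cre* and 47.7 and 64.4 in *Med23flox/flox* mice. After αCD3 it was 43.5 and 28.9 in MED23 null, against 38.3 and 34.2 in *Lck-Cre* and 83.1 and 88.1 in *Med23flox/flox* mice. Only the *Lck-Cre* mock arrays were high, so the mock difference (−1.23, SE 0.69, limma adjusted p = 0.738) rested on them. Mock means of *Klf2* were 40.5 in MED23 null, 379 in *Lck-Cre* and 56.1 in *Med23flox/flox* mice, and those of *Slfn1* (430, 1088 and 948) and *Gimap4* (1502, 3433 and 2675) had the same order of genotypes. How many probe sets have this order was not counted. In mock the *Med23flox/flox* mean lay nearer to the MED23 null mean for *Klf2* and nearer to the *Lck-Cre* mean for *Slfn1* and *Gimap4*. After αCD3 the order was not shared. The means, in the same sequence of genotypes, were 36.2, 36.25 and 85.6 for *Klf2*, 329.2, 756.7 and 640.0 for *Slfn1* and 1626, 2853 and 2569 for *Gimap4*.

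Of the members' relatives, *Gimap1*, the only other GIMAP gene of 5 listed with a probe set, did not share the lower level of *Gimap4*, which lies in the same cluster. It was 2548 and 2311 in MED23 null, against 2174 and 2560 in *Lck-Cre* and 2232 and 2306 in *Med23flox/flox* mock thymocytes. The log2 difference was 0.07 in mock (SE 0.15, limma adjusted p = 0.935) and 0.07 after αCD3 (SE 0.18, adjusted p = 0.979). None of 5 other Schlafen genes listed had a probe set of a single symbol. Of 13 other MS4A genes listed, 6 were tested, and all 6 were above 0 in mock MED23 null minus control, with a median of 0.34 and none past the test. After αCD3, 3 were below and 3 above 0, with a median of 0.02. In mock, *Ms4a4d* was dim, at 59.8 and 70.1 in MED23 null and 28.3 to 49.6 in control arrays. So were *Ms4a2* (107.7 and 108.7 against 4.7 to 92.5) and *Ms4a4c* (104.9 and 119.2 against 25.5 to 142.4). The mock median lay between the values of *Ms4a4d* (0.33) and *Ms4a4c* (0.35). *Ms4a6b* (0.04), *Ms4a6c* (0.32) and *Ms4a1* were brighter. The part of low signal in the shared direction was not tested. *Ms4a1*, which encodes the B-cell antigen CD20, was at 487.5 and 442.5 in MED23 null, against 299.9 and 303.7 in *Lck-Cre* and 288.8 and 273.1 in *Med23flox/flox* mice (0.59, SE 0.14, adjusted p = 0.384). It is itself part of the B-cell sums given above, most of which came from *Ighm* (5749 to 6045 in MED23 null and 5044 to 5323 in control mock arrays). After αCD3 the *Ms4a1* difference was −0.14 (SE 0.23, adjusted p = 0.971), while the B-cell sums were 10660 to 10760 in MED23 null and 8078 to 9779 in control arrays. Its second probe set was at 1.04 in mock (SE 0.16, adjusted p = 0.219) and −0.30 after αCD3 (SE 0.44, adjusted p = 0.969). Interferon response genes, which were listed because some *Slfn* genes respond to interferon, gave 4 below and 9 above 0 of 13 tested, with a median of 0.06.

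**Figure D4:**
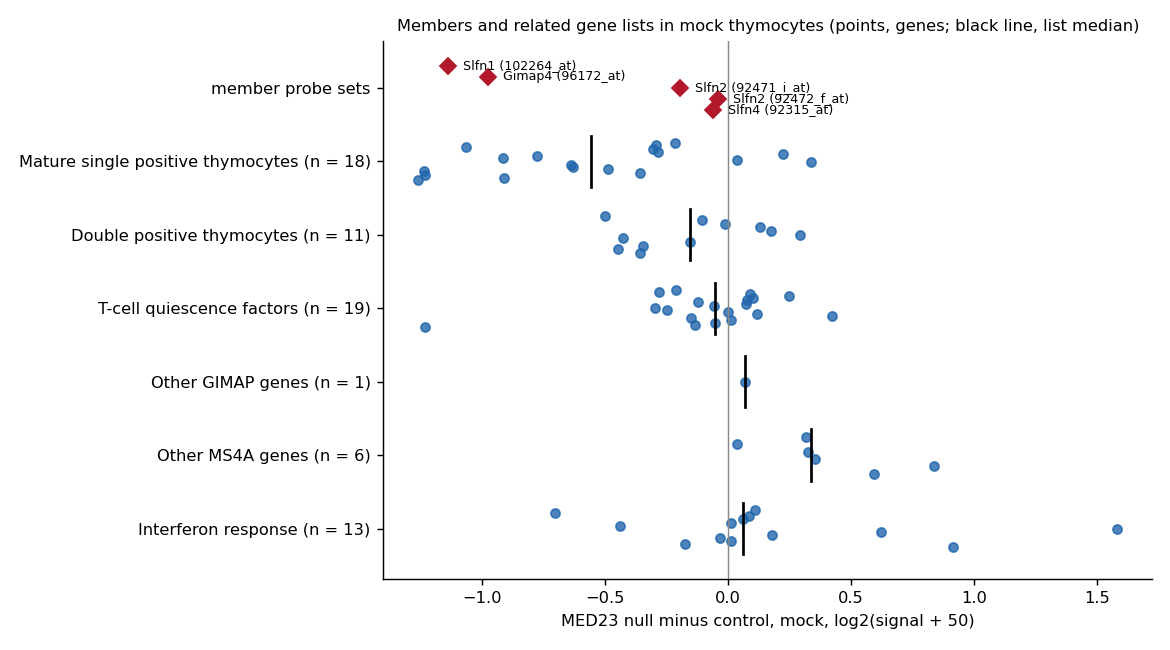
MED23 null minus control in mock thymocytes, on the log2(signal + 50) scale, for the 5 member probe sets (diamonds) and for the tested genes of 6 lists (points, 1 gene each, spread vertically for clarity), with each list's median as a black line. *Slfn1* and *Gimap4* lie at −1.14 and −0.98, in the range of the lowest markers of mature single positive thymocytes (median −0.56), while quiescence factors have a median of −0.05 and *Gimap1* lies at 0.07.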

How the data were processed

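The authors computed MAS5 signals, intensities on a linear scale, on Affymetrix mouse genome arrays and deposited them per probe set. The version of MAS5 is not given in the sources used here. Following the study, the arrays were scaled to the mock array of *Lck-Cre* replicate 1 by the mean after trimming 2% at each end. The arrays hold 12488 probe sets, of which 66 are controls and were excluded. A total of 9478 had a mean of at least 100 in at least 1 of 6 conditions. Values of log2(signal + 50) were tested two-sided with lmFit and eBayes in limma 3.58.1 (R 4.3.3), adjusted by Benjamini and Hochberg over all 9478, with a threshold of 0.05. Python 3.11.15, pandas 2.3.3, numpy 2.4.6 and matplotlib 3.10.9 were used for counts and figures, and the fits were tested on simulated data.

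MED23 null was compared with both controls pooled, as in the study, and with each one, per treatment. αCD3 was compared with mock within mice, whose identity the labels give. The correlation of a mouse's mock and αCD3 deviations was 0.061 to 0.149. Separate mice are separate replicates. The p-values rest on a spread pooled over the 6 mice of a fit and moderated over all tested probe sets. They do not measure the spread of the 2 MED23 null mice alone. Where the controls were pooled, that spread also holds the difference between the control genotypes. No pair of arrays was identical.

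Of the other probe sets, 10833 have 1 symbol (10817 matched by Entrez ID), 396 several and 1193 none. Names come from the platform annotation. The rule for named genes took every probe set of the 8 members, the 3 genes most like each member, the family lists, *Klf2*, *Ccr7*, *Cd52*, *Il7r* and *Med23*. The names *Btg1*, *Tob1*, *Foxo3*, *Evl*, *Lef1*, *Cd44*, *Rag1*, *Rag2*, *Dntt*, *Cd8b1*, *Cd4*, *Gzma*, *Gzmb* and *Ighm* were added once their values were known. The members and lists were chosen with earlier results of these data known. Promoter sequences are RefSeq's for GRCm38.p6. All 8 members matched the promoter table by symbol. Alternatives were the pseudocount, filter, scaling, variance trend, blocks, controls and mice left out.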

Additional observations from a re-analysis of the deposited data

How the results depend on the processing

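No member probe set passed the threshold in any comparison under any alternative run, and the smallest adjusted p of a member was 0.121. Of 923 alternative values of the members' log2 differences, 24 changed sign and none changed its call. None of the 187 for *Slfn1* changed sign. Its mock MED23 null minus control difference lay between −1.23 and −1.05 (adjusted p 0.121 to 0.679), and that of *Gimap4* between −1.14 and −0.83 (0.234 to 0.915). With the replicate number as a replicate block, *Slfn1* had an adjusted p of 0.366 in mock and 0.583 after αCD3, and no call changed. The deviations of same-numbered mice correlated at −0.011 to 0.051 in mock and 0.063 to 0.116 after αCD3. Mock and αCD3 deviations of the same mouse correlated at only 0.061 to 0.149. The check therefore cannot decide whether same-numbered mice share more than a number.

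The changes of sign were of small values, and their cause was not tested. With 1 mouse left out at a time, MED23 null minus control ran from −0.1832 to 0.0033 (*Slfn4*, mock), −0.1451 to 0.0415 (second *Slfn2* probe set, mock) and −0.1267 to 0.0068 (first *Slfn2* probe set, αCD3). MED23 null minus *Med23flox/flox* ran from −0.203 to 0.3021 (*Slfn4*, mock), −0.1966 to 0.1076 (first *Slfn2* probe set, mock) and −0.0224 to 0.3511 (*Slfn4*, αCD3), and MED23 null minus *Lck-Cre* after αCD3 from −0.1788 to 0.0043 (second *Slfn2* probe set). The αCD3 response of MED23 null mice ran from −0.0791 to 0.0743 (*Slfn4*), −0.1957 to 0.0632 (first *Slfn2* probe set) and −0.0545 to 0.2883 (*Gimap4*). For the second *Slfn2* probe set the response ran from −0.144 to 0.1275 in control mice and −0.1115 to 0.0514 over all mice, and its difference between genotypes from −0.1902 to 0.0812. *Lck-Cre* minus *Med23flox/flox* ran from −0.0297 to 0.4755 (*Slfn4*, mock), −0.2841 to 0.0701 (second *Slfn2* probe set, αCD3) and −0.2428 to 0.6855 (*Gimap4*, αCD3). With *Lck-Cre* mice as the only controls, the second *Slfn2* probe set had a response of −0.1948 and a difference in response of 0.1321. With 10% trimmed, the *Slfn4* response in MED23 null mice was 0.0097 and the response of the second *Slfn2* probe set over all mice −0.0059. With quantile normalization, *Slfn4* was 0.0467 in the first of these and −0.0276 for mock MED23 null minus *Med23flox/flox*.

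Counts over all probe sets moved more. Those past the test of the αCD3 response were 14 in control mice, against 27 with a pseudocount of 100, 33 with a minimum signal of 200, 4 with a variance trend, 3 to 9 without 1 mouse, 42 with no replicate block, 50 with the mouse as a random block and 0 with either control genotype alone. In MED23 null mice, 3 passed, against 0 or 1 under most alternatives, and over all mice 34 passed, against 8 to 55. For MED23 null minus control, where none passed, a variance trend gave 2 in mock and 5 after αCD3, and a minimum signal of 200 gave 1 in mock. Against *Lck-Cre* in mock, the trend gave 3 and the random block 1. With 2 mice per genotype, changes of the size seen for *Slfn2* and *Slfn4* could not be told from the spread between mice.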
